A study of Mus musculus with 12 samples.

Results

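The replication-dependent histone genes were examined in mouse skin-derived precursors (SKPs), dermal cells grown as floating spheres. They were taken as every gene with a probe set of its own (1 symbol in the array annotation) whose symbol belongs to the Hist1, Hist2, Hist3 or Hist4 gene names, or, in the newer naming, to H2ac, H2bc, H3c, H4c or H1f1 to H1f5. This rule gave 25 of the 22180 genes on the array: 4 linker histone H1 genes, 6 H2A genes, 8 H2B genes, 7 H4 genes and 0 H3 genes. For each symbol the brightest probe set was used. Of the 25 genes, 12 were brighter than the median of the array on 3 or more of the 12 arrays and were tested, 3 of each type, among 13153 genes tested in all. By their older names, 20 of the 25 genes carry the name of the Hist1 cluster and 5 that of the Hist2 cluster.

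The cells came from the skin of 9 month old mice, whose strain the labels spell CD57/Bl6, and all groups share the growth factors FGF2 and EGF and the supplement B27. The 4 groups of 3 arrays were spheres from uninjured skin with vehicle, and from wounded skin with vehicle, with trimebutine maleate (a gut motility drug) or with alprostadil (prostaglandin E1). The sources used here give no drug dose, treatment time, skin site or interval between wounding and culture. The spheres were secondary ones, so all cells had been in culture with mitogens before RNA was taken, and the labels number the 3 samples of a group as biological replicates. Of the markers of the cells, the fibroblast receptor gene Pdgfra lay between 11.19 and 12.67 on the 12 arrays (log2 expression), and of the SKP markers Snai2 lay between 11.89 and 12.38, Vcan between 11.25 and 12.45 and Sox9 between 10.14 and 11.13. Nestin (Nes), another SKP marker, reached at most 7.12, and Sox2 lay between 4.69 and 5.61 and was not tested.

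Nucleosomes wrap DNA around pairs of the core histones H2A, H2B, H3 and H4, and linker histone H1 binds where the DNA enters and leaves. The replication-dependent genes supply most of these proteins during S phase. They lie in clusters of many near-identical copies, and their mRNAs end in a stem-loop, bound by SLBP, in place of a poly(A) tail. Transcription and mRNA stability both rise when DNA is copied and fall afterwards, which makes these transcripts a classical readout of S phase in dividing cells.

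No histone gene passed the test in any comparison of the groups. The 3 tested H1 genes lay lower in wound vehicle than in uninjured vehicle, and higher in both drug groups than in wound vehicle, with the widest span in H1f5. H1f5 passed the filter on no wound vehicle array, so that the filter favoured a low wound vehicle for this gene. Genes of the Hist1 and Hist2 clusters lay mostly on different sides of 0 in wound vehicle against uninjured vehicle and in trimebutine against wound vehicle. The filter favoured these sides for H1f5 and H2bc12 of the Hist1 cluster. Leaving out 1 array moved some genes of both clusters across 0, and the difference between the clusters was not tested. Within groups, 4 genes of the Hist1 cluster (H1f5, H2ac10, H2bc3 and H4c9, 1 of each type) rose with a score of DNA replication genes. For H1f5 the filter also favoured such a rise.

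Promoters are shown for those 4 genes and for 2 genes of the Hist2 cluster, H2ac21 and H2bc18, because the clusters are set side by side below. Each run is the 250 bases before the RefSeq transcript start, 5′ to 3′ on the strand of the gene, from the RefSeq table of build GRCm38.p6. Capitals mark the TATA box, searched as TATAAA, the motif bound by NF-Y, searched as CCAAT, the octamer bound by POU2F1, searched as ATTTGCAT, the H1 box, searched as AAACACA, and the core of site II of H4 genes, which HINFP binds, searched as GGTCCG. Each is also marked where it stands on the other strand.
H1f5, chr13:21780626-21780875, minus strand: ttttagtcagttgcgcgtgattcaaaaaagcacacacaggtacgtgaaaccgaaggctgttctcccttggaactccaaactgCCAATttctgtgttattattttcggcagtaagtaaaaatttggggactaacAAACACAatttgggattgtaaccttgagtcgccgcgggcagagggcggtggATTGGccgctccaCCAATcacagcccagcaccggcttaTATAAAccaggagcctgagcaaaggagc
H2ac10, chr13:23533625-23533874, plus strand: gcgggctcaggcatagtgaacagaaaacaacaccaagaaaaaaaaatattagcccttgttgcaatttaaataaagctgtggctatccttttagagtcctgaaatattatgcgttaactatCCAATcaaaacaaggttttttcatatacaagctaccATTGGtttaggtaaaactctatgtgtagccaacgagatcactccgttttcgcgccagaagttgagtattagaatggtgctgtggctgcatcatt
H2bc3, chr13:23746484-23746733, plus strand: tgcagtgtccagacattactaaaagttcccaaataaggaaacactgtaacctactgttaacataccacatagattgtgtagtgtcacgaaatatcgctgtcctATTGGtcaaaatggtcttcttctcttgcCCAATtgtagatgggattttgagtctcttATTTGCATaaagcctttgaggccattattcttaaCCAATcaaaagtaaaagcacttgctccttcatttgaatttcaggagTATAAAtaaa
H4c9, chr13:22041363-22041612, minus strand: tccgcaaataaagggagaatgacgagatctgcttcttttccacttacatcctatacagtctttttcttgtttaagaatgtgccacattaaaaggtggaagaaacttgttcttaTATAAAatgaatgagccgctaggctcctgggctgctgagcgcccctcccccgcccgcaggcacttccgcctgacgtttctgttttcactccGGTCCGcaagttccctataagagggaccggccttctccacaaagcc
H2ac21, chr3:96219635-96219884, plus strand: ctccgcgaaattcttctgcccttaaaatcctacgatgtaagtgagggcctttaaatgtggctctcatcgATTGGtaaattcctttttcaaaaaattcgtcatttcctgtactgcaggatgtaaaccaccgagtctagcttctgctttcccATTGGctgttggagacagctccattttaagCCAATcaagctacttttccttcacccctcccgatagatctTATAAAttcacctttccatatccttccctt
H2bc18, chr3:96269450-96269699, plus strand: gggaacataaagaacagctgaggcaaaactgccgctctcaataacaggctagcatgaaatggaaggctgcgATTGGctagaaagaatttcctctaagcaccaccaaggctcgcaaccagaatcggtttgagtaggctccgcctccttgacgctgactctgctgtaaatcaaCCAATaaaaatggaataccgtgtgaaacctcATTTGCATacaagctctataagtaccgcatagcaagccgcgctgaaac

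All 25 symbols matched a RefSeq gene and 23 had a promoter entry of 300 bases (250 before and 50 after the start). CCAAT stood in the promoters of all 4 H1, all 6 H2A and all 7 H2B genes but in 1 of 6 H4 genes, against 37.4% of the 32851 promoter entries of the genome. The octamer stood in 5 of 7 H2B and 3 of 6 H2A promoters and in no H1 or H4 promoter, against 1.74% of all entries. The H1 box stood in 3 of 4 H1 promoters, and in 3 promoters of the H2A and H2B genes, against 7.18%. The site II core stood in 5 of 6 H4 promoters and 1 other, against 8.25%, and TATAAA in 16 of 23 against 13.6%. The motifs were searched on both strands and share no bases with each other in the runs above. The promoter windows of H2ac12 and H2bc12 overlap by 277 bases and those of H2ac1 and H2bc1 by 220 bases, since these gene pairs are read in opposite directions from a common stretch. Motifs in a shared stretch are counted for both genes. The octamers of H2ac1 and H2bc1 are 1 site, as are those of H2ac12 and H2bc12 and the H1 boxes of H2ac1 and H2bc1. The TATAAA of H2bc12 is likewise that of H2ac12. A match is a description of letters only.

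Among the linker histones, H1f5 had the widest difference of the 12 genes in each of the 3 comparisons with wound vehicle. It was brighter than the array median on 4 arrays, none of them of wound vehicle, so that the filter favoured such differences. H1f5, an H1 subtype made in S phase, was at 6.98, 6.42 and 5.998 (log2 expression) in uninjured vehicle and at 5.03, 4.45 and 6.64 in wound vehicle. It was at 7.35, 6.73 and 6.57 in wound trimebutine and at 8.50, 5.40 and 6.65 in wound alprostadil. Wound vehicle replicates 1 and 2 and wound alprostadil replicate 2 were the lowest of the 12 arrays, and every group overlapped wound vehicle. The differences were -1.09 ± 0.74 log2 units (SE; 95% interval -2.72 to 0.54) for wound vehicle minus uninjured vehicle and 1.51 ± 0.74 (-0.12 to 3.14) for wound trimebutine minus wound vehicle. For wound alprostadil minus wound vehicle the difference was 1.48 ± 0.74 (-0.16 to 3.11). None of the 3 passed (limma, adjusted p 0.546, 0.539 and 0.998). Without wound alprostadil replicate 1 the alprostadil difference was 0.65.

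H1f2, an H1 subtype found in most cell types, was bright on every array, at 11.41, 11.16 and 11.38 in uninjured vehicle and 10.62, 10.43 and 11.13 in wound vehicle. The arrays of these groups did not overlap, and the difference was -0.59 ± 0.26 log2 units. It was 11.64, 10.99 and 10.81 in wound trimebutine and 11.65, 10.88 and 11.06 in wound alprostadil, values that reach both above and into the range of wound vehicle. H1f2 was the only histone gene of this comparison with an unadjusted p under 0.05 (limma, adjusted p 0.378), a share of 1 in 12 against 13% of all tested genes, and 18% of all tested genes did not overlap. H1f3 had group means of 7.46 ± 0.12, 7.24 ± 0.30, 7.50 ± 0.18 and 7.65 ± 0.78 (SD, n = 3; uninjured vehicle, then wound vehicle, trimebutine and alprostadil). Its spread in alprostadil came with a value of 8.54 on replicate 1, against 7.24 and 7.16 on the other arrays of that group. H1f1, the remaining member of the type, stayed between 3.05 and 4.38 and was not tested. The 3 tested H1 genes lay at -0.22 to -1.09 in wound vehicle minus uninjured vehicle, at 0.25 to 1.51 in trimebutine minus wound vehicle and at 0.40 to 1.48 in alprostadil minus wound vehicle.

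Markers of dermal fibroblasts and macrophages lay mostly on opposite sides of 0 in the first of these comparisons, and none passed the test. Of 10 dermal fibroblast markers 9 lay below 0 in wound vehicle minus uninjured vehicle (median -0.49), and 8 and 7 lay above 0 in trimebutine and alprostadil minus wound vehicle (0.50 and 0.02). The fibroblast score, a mean of the markers after each was centred over the arrays, was -0.37 and -0.61 on wound vehicle replicates 1 and 2 and -0.47 and -0.46 on wound alprostadil replicates 1 and 2, against 0.14 to 0.41 on the other 8 arrays. H1f5 was low on 3 of those 4 arrays and highest of all on the fourth, wound alprostadil replicate 1. Of 9 tested macrophage and leukocyte markers all lay above 0 in wound vehicle minus uninjured vehicle (median 0.84), all below 0 in trimebutine minus wound vehicle (-0.83) and 8 above 0 in alprostadil minus wound vehicle (0.67). The part of these cells in the H1 values was not tested.

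H2A and H2B form the dimers on the outside of the nucleosome, and their genes often lie head to head. H2ac10 was at 10.67, 10.29 and 9.85 in uninjured vehicle, 9.93, 9.79 and 10.51 in wound vehicle, 10.68, 10.44 and 10.45 in wound trimebutine and 10.40, 9.82 and 10.43 in wound alprostadil. Its 3 trimebutine arrays lay above its 3 alprostadil arrays, with the nearest pair at 10.44 and 10.43, and 11.2% of all tested genes did not overlap in that comparison. The difference of trimebutine minus alprostadil was 0.31 ± 0.25 (95% interval -0.25 to 0.86; adjusted p 0.758), and that of trimebutine minus wound vehicle was 0.45 ± 0.25 (adjusted p 0.556). H2ac21 was at 8.17, 7.38 and 8.59 in uninjured vehicle and 8.71, 8.61 and 7.82 in wound vehicle. It was at 9.14, 7.91 and 8.04 in trimebutine and 10.03, 8.13 and 7.72 in alprostadil, so that replicate 1 of both drug groups stood highest. H2ac21 was the only histone gene with 2 probe sets of its own, and they disagreed: the brighter one spanned 2.64 log2 units over the 12 arrays and the other, with a mean of 4.90, spanned 0.48.

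H2ac1, named as a histone of the testis (older name Hist1h2aa), lay near the array median, between 6.38 and 6.94 on the 12 arrays. Its alprostadil values of 6.74, 6.76 and 6.798 lay above the uninjured values of 6.69, 6.61 and 6.38, with a difference of 0.21 ± 0.11 (adjusted p 0.708), where 9.41% of all tested genes did not overlap. The other testis histone, H2bc1 (Hist1h2ba), was not tested and stayed between 2.84 and 3.37. Among the other H2A genes, H2ac12 lay between 2.72 and 3.104, while H2ac15 reached 6.71 and H2ac20 6.61, each above the array median on 1 array only, and these 3 were not tested.

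Of the H2B genes, H2bc12 was at 6.87, 6.35 and 6.20 in uninjured vehicle, 6.03, 6.27 and 6.52 in wound vehicle, 7.80, 6.17 and 6.51 in trimebutine and 7.93, 5.99 and 6.08 in alprostadil. It entered the test through 3 arrays alone, replicate 1 of uninjured vehicle, trimebutine and alprostadil, which were its highest. H2bc3 varied less, with means of 7.76 ± 0.26, 7.68 ± 0.35, 7.98 ± 0.15 and 7.87 ± 0.40 in the same order of groups, and all groups overlapped. H2bc18, a gene of the Hist2 cluster, was at 6.81, 6.72 and 6.82 in uninjured vehicle and 7.38, 6.87 and 6.74 in wound vehicle, with 7.19, 6.69 and 6.85 in trimebutine and 7.69, 7.09 and 6.54 in alprostadil. Its 3 uninjured arrays lay close together and overlapped each wound group. The H2B genes H2bc9, H2bc14, H2bc21 and H2bc22 were not tested, and of these H2bc21 reached 6.83 on its highest array while the others stayed at or under 5.35.

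H4 pairs with H3 in the inner tetramer. H4c9 was at 8.19, 8.18 and 7.22 in uninjured vehicle, 7.63, 6.47 and 8.08 in wound vehicle, 7.91, 7.79 and 7.59 in trimebutine and 8.41, 7.32 and 7.75 in alprostadil. The value of wound vehicle replicate 2 was the lowest of the 12, and the groups overlapped. H4c12 was bright and steady, with means of 12.26 ± 0.07, 12.27 ± 0.11, 12.33 ± 0.10 and 12.43 ± 0.22 and a span of 0.51 log2 units over the 12 arrays. Its difference of alprostadil minus wound vehicle was 0.16 ± 0.11 (95% interval -0.09 to 0.42). H4c14, of the Hist2 cluster, had means of 6.77 ± 0.38, 7.04 ± 0.30, 6.86 ± 0.15 and 7.09 ± 0.27. H4c1, H4c2, H4c8 and H4c17 stayed between 3.02 and 5.36 and were not tested.

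**Figure D1:**
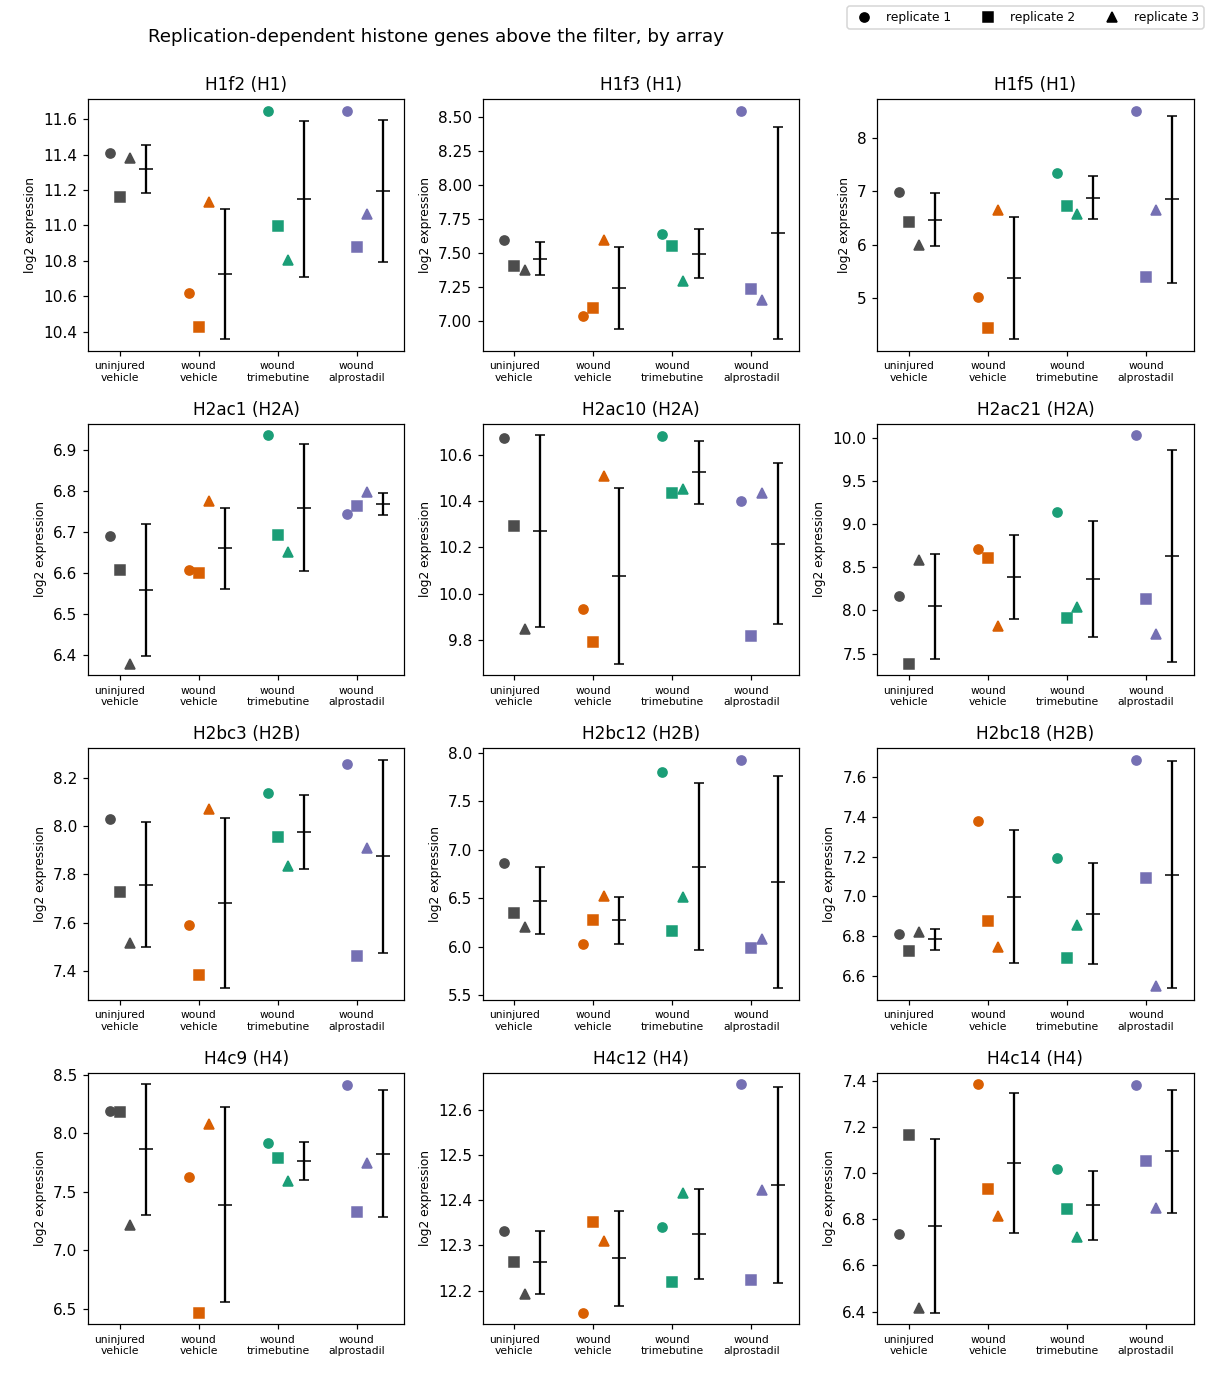
Log2 expression (vertical axis, a separate scale in each panel) of the 12 tested histone genes by group. Colours stand for groups, symbols for replicate numbers, and the bars beside them are the mean ± SD of 3 arrays. H1f5 spans 4.05 log2 units over the 12 arrays and H4c12 spans 0.51, and replicate 1 of wound alprostadil is the highest array for 9 of the 12 genes.

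No H3 gene had a probe set of its own, so H3 was followed through probe sets that carry several gene symbols at once and are not members. Of 37 probe sets whose symbols were all histone genes, 34 had values of their own and 19 of those were tested, while 3 repeated the values of another. A probe set of 8 genes for histone H3.2 was at 10.40, 10.41 and 10.30 in uninjured vehicle, 9.81, 10.004 and 10.30 in wound vehicle, 10.39, 10.18 and 9.95 in trimebutine and 10.48, 10.11 and 10.22 in alprostadil. Wound vehicle replicate 1 was its lowest array and the groups of uninjured and wound vehicle touched at 10.30. Its smallest adjusted p over the 6 comparisons was 0.388. The 3 tested H3.2 probe sets lay at -0.41 to -0.20 in wound vehicle minus uninjured vehicle. The 1 tested probe set of H3.1 genes lay on the other side of 0 there, at 0.24, between 6.68 and 7.16 on the 12 arrays. The 7 tested H2B probe sets of several genes, 1 of them a repeat, lay at -0.56 to -0.05 in wound vehicle minus uninjured vehicle and at 0.07 to 0.43 in trimebutine minus wound vehicle. Of 6 tested H2A probe sets of several genes, repeats included, 5 lay above 0 in wound vehicle minus uninjured vehicle (median 0.08). Of 4 tested H4 ones 2 did, with a range of -1.07 to 0.03. In trimebutine minus wound vehicle 3 of the 6 and all 4 lay above 0.

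Wounding alone was read from wound vehicle against uninjured vehicle. In this comparison 0 of the 12 histone genes passed (limma, all 13153 genes, Benjamini-Hochberg; smallest adjusted p 0.378), against 0.0456% of all tested genes. The histone genes had a median difference of -0.13 log2 units, with 5 of 12 above 0, and all genes had a median of 0.01, with 51.4% above 0. By type the medians were -0.59 for H1, 0.10 for H2A, -0.08 for H2B and 0.01 for H4. With array weights, which let limma count variable arrays less, 4 of 12 passed, H1f2 and H1f5 below 0 and H2ac21 and H2bc18 above, against 38% of all tested genes. The median turned to 0.04 without uninjured vehicle replicate 1, over the 11 genes that then passed the filter, and was 0.0083 over all 25 genes with no filter. With any other single array left out it lay between -0.30 and -0.02.

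Each drug was read against wound vehicle, and these comparisons share the 3 wound vehicle arrays with each other and with the one above. H1f5 and H2bc12 passed the filter on no wound vehicle array. For these genes the filter thus favoured differences above 0 here and below 0 in the comparison above. For trimebutine 0 of 12 histone genes passed (smallest adjusted p 0.539; 0% of all tested genes passed) and 0 had an unadjusted p under 0.05, where 9.43% of all genes did. The median difference was 0.27 with 9 of 12 genes above 0, against -0.00 and 50% over all genes. No histone gene had groups that did not overlap, against 15.8% of all tested genes. With array weights 2 of 12 passed, H1f5 and H2ac10, both above 0, against 30.7% of all tested genes. For alprostadil 0 of 12 passed (smallest adjusted p 0.998; 0% of all tested genes) and 0 had an unadjusted p under 0.05, where 2.75% of all genes did. All 12 lay above 0, with a median of 0.22, against 59.4% and 0.03 over all genes, and 0 of 12 groups were without overlap (5.9% of all genes). Over the 11 genes that passed the filter without wound alprostadil replicate 1 that median was 0.05, and it was 0.45 and 0.43 without replicates 2 and 3 of that group. The trimebutine median ran from 0.12 without wound vehicle replicate 2 to 0.46 without wound vehicle replicate 3. Over all 25 genes with no filter it was 0.05.

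By type, the medians for trimebutine minus wound vehicle were 0.42 for H1, 0.10 for H2A, 0.29 for H2B and 0.05 for H4, and for alprostadil minus wound vehicle 0.47, 0.14, 0.19 and 0.16. Each is a median of 3 genes.

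**Figure D2:**
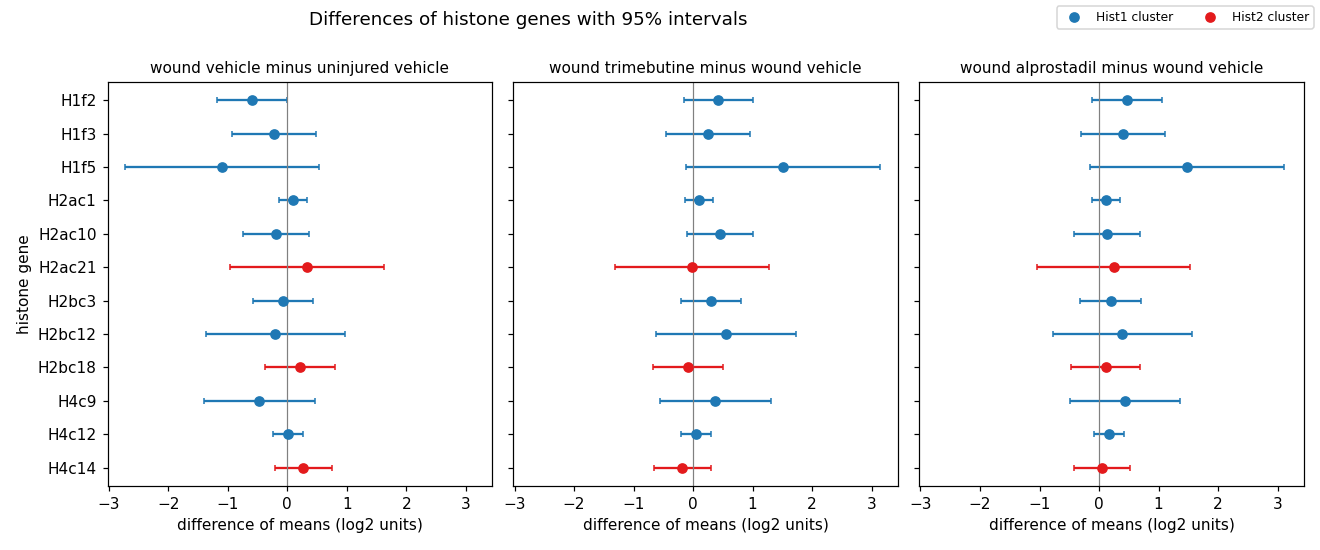
Difference of group means (horizontal axis, log2 units) with its 95% interval for the 12 tested histone genes in the 3 comparisons with wound vehicle, coloured by gene cluster. In all but 1 case the intervals span 0, the exception being H1f2 in wound vehicle minus uninjured vehicle (-1.18 to -0.01), and the intervals of H1f5 and H2ac21 are the widest.

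The drugs were also set against each other and against uninjured vehicle. In trimebutine minus alprostadil 0 of 12 passed (smallest adjusted p 0.758; 0% of all tested genes), the median was -0.06 with 4 of 12 above 0, and 46.2% of all genes lay above 0. That median turned to 0.23 without wound alprostadil replicate 1 (over 11 genes) and to 0.04 without wound trimebutine replicate 3, and reached -0.21 without wound alprostadil replicate 2. H1f5 differed by 0.03 ± 0.74 between the drugs, with a 95% interval of -1.60 to 1.66, so that differences within these limits in either direction were not excluded. In trimebutine minus uninjured vehicle 0 of 12 passed (smallest adjusted p 0.804; 0.198% of all tested genes passed), with 10 of 12 above 0 and a median of 0.16, against 51.1% of all genes. The median fell to 0.0099 without wound trimebutine replicate 1, over 11 genes, and to 0.07 without uninjured vehicle replicate 3. In that comparison 0 of 12 had groups without overlap, against 13.7% of all tested genes. In alprostadil minus uninjured vehicle 0 of 12 passed (smallest adjusted p 0.708; 0% of all tested genes), with 9 of 12 above 0 and a median of 0.19, against 55.4% of all genes. It turned to -0.12 without wound alprostadil replicate 1, over 11 genes, and was 0.33 and 0.31 without replicates 2 and 3 of that group. No histone gene had an unadjusted p under 0.05 in these 3 comparisons, where 4.42%, 7.13% and 7.25% of all genes did. In the F test over the 4 groups 0 of 12 passed (smallest adjusted p 0.694; 0.0152% of all tested genes), and 0 had an unadjusted p under 0.05, where 7.89% of all genes did.

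The 2 clusters were set side by side after these values had been seen. In wound vehicle minus uninjured vehicle the 3 tested genes of the Hist2 cluster (H2ac21, H2bc18 and H4c14) lay at 0.22 to 0.34, and 7 of the 9 of the Hist1 cluster lay below 0. Without uninjured vehicle replicate 1, H2ac10 and H2bc3 of the Hist1 cluster turned above 0 there and H2bc12 no longer passed the filter. In trimebutine minus wound vehicle the 3 Hist2 genes lay at -0.18 to -0.02 and all 9 Hist1 genes above 0, at 0.05 to 1.51. Of these 9, H1f5 (at 1.51) and H2bc12 passed the filter on no wound vehicle array, so that the filter favoured their sides in both comparisons. In alprostadil minus wound vehicle all 9 and all 3 lay above 0, with medians of 0.39 and 0.11. The difference between the clusters was not tested. H2bc18 in trimebutine minus wound vehicle turned from -0.09 to 0.10 without wound vehicle replicate 1 and to 0.02 without wound trimebutine replicate 2. H2ac21 was at -0.02 ± 0.58 in that comparison and also turned above 0 without wound vehicle replicate 1.

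Single arrays stood out for many histone genes together. Wound alprostadil replicate 1 was the highest of the 12 arrays for 9 of the 12 histone genes, as it was for 21.6% of all tested genes, and for 7 of the 10 that pass the filter without the 3 arrays named next. Wound vehicle replicate 2 was the lowest for 5 of 12, as it was for 14.8% of all tested genes. The histone score, the mean of the 12 genes after each was centred over the arrays, was 0.80 on wound alprostadil replicate 1, 0.43 on wound trimebutine replicate 1 and 0.16 on uninjured vehicle replicate 1. It lay between -0.44 and 0.04 on the other 9 arrays. The same 3 arrays had the lowest array medians, 6.57, 6.62 and 6.61, against 6.70 to 6.74 on the other 9. H2bc12 passed the filter on these 3 arrays alone and H1f5 on these and 1 other, so that the filter favoured them; their means there were higher by 1.29 and 1.62. Over the other 10 histone genes the score of the 3 arrays was 0.61, 0.30 and 0.10, against -0.31 to 0.02 on the other 9. All 10 had a higher mean on the 3 arrays, with a median difference of 0.42 log2 units, where 55.5% of the 12806 genes that pass the filter on the other 9 arrays were higher and the median was 0.03. For H1f2 and H1f3 all 3 arrays lay above all other 9, as for 5.36% of those genes, by 0.63 and 0.62 in the means. The nearest pairs of arrays were close, at 11.41 and 11.38 for H1f2 and at 7.596 and 7.593 for H1f3. Whether the array median has a part in the histone values was not tested.

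Wound alprostadil replicate 1 also held macrophage transcripts. The score of 9 tested macrophage and leukocyte markers (of 13 in the annotation) was 3.82 there. It lay between -0.69 and -0.08 in uninjured vehicle, -0.06 and 0.67 in wound vehicle, -0.89 and -0.17 in trimebutine, and at -0.89 and -0.34 on the other alprostadil arrays. Ptprc, the leukocyte antigen CD45, was 10.44 on that array and at most 5.67 elsewhere, and Csf1r, the CSF1 receptor, was 10.12 and at most 6.95 elsewhere. The part of such cells in the histone values was not tested, and in RNA from whole spheres fewer cells of a type and less RNA per cell cannot be told apart. Without the 3 arrays of lowest median, which include this one, the median histone difference was 0.05 in wound vehicle minus uninjured vehicle, 0.11 for trimebutine and 0.02 for alprostadil minus wound vehicle, over the 10 genes that then passed the filter, and 0 of 10 passed in each.

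**Figure D3:**
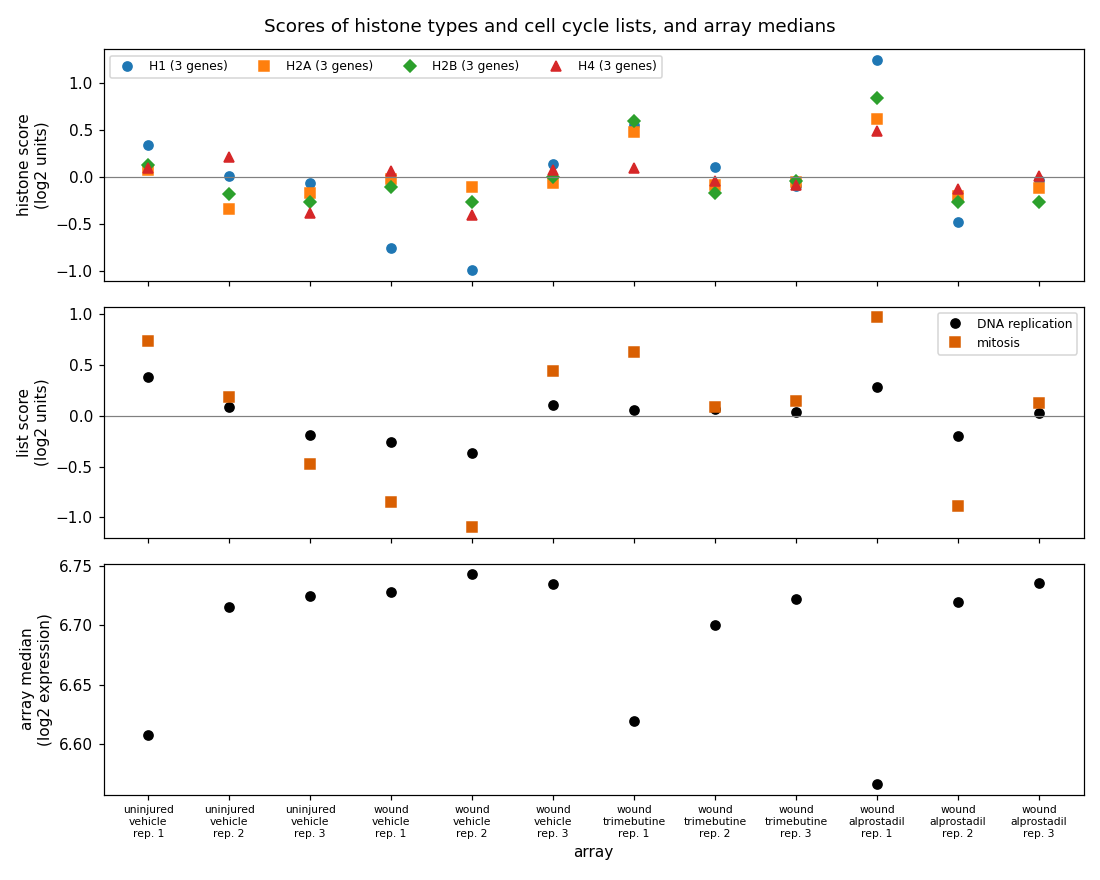
Scores on the 12 arrays (log2 units): histone genes by type, each the mean of 3 centred genes (top), the DNA replication and mitosis lists (middle), and the median log2 expression of the array (bottom). The 3 arrays with medians of 6.57 to 6.62 hold the highest H2A and H2B scores, and wound vehicle replicates 1 and 2 hold the lowest H1 scores.

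The DNA replication and G1/S genes gave a readout of the cell cycle that does not use the histones, and S phase itself was not measured. Of 53 DNA replication and G1/S genes in the annotation 49 were tested, and none passed in any comparison. Their median was -0.21 in wound vehicle minus uninjured vehicle, with 45 of 49 below 0, and 0.20 and 0.19 in trimebutine and alprostadil minus wound vehicle, with 42 and 46 of 49 above 0. Mcm5, a subunit of the replicative helicase, was at 9.05, 8.24 and 7.36 in uninjured vehicle and 7.04, 7.14 and 8.47 in wound vehicle. It was at 8.42, 8.14 and 8.27 in trimebutine and 9.05, 7.31 and 8.22 in alprostadil, low on the same wound vehicle and alprostadil arrays as H1f5. Pcna, the clamp of the replicative polymerases, differed by -0.08 ± 0.16 between wound vehicle and uninjured vehicle and Mcm5 by -0.67 ± 0.53. Of 34 tested mitosis genes none passed, all 34 lay below 0 in wound vehicle minus uninjured vehicle (median -0.60) and all 34 above 0 for trimebutine and alprostadil minus wound vehicle (0.68 and 0.52). Mki67, which encodes the proliferation antigen Ki-67, was at 7.28, 7.11 and 9.55 in wound vehicle and at 9.80, 8.97 and 9.19 in trimebutine, so that wound vehicle replicate 3 stood with the trimebutine arrays.

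Within groups, 4 of the 9 tested genes of the Hist1 cluster rose with the replication score. A limma fit with the 4 group means and the score of the 49 replication genes, chosen after the data had been seen, gave each gene a slope in log2 units per unit of score. Of the 12 histone genes 4 had a slope above 0 that passed, against 4.25% of all tested genes, and 0 had one below 0, against 2%. H2bc3 had a slope of 1.29 ± 0.19 (SE; limma, adjusted p 0.00806), H2ac10 of 1.40 ± 0.21 (0.00933), H1f5 of 3.99 ± 0.73 (0.0164) and H4c9 of 2.22 ± 0.44 (0.0224). Among the few arrays on which H1f5 passed the filter were uninjured vehicle replicate 1 and wound alprostadil replicate 1. Their scores, 0.38 and 0.28, were the highest of the 12, so that the filter favoured a slope above 0 for H1f5. The same holds for H2bc12. The median slope was 1.12 over the 12 genes and 0.03 over all genes. The slopes and the score come from the same 12 arrays, so that any difference of an array enters both, which was not tested.

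The other 8 genes did not pass. H1f3 (1.33 ± 0.47, adjusted p 0.118), H1f2 (0.96 ± 0.43, 0.197) and H2bc12 (1.89 ± 0.87, 0.211) had slopes above 0 with wider errors, and H4c12 (0.37 ± 0.19, 0.260) and H2ac1 (0.33 ± 0.18, 0.272) had smaller ones. The 3 Hist2 genes had slopes of 0.25 ± 0.42 (H4c14), 0.18 ± 0.53 (H2bc18) and 0.33 ± 1.17 (H2ac21), and whether slopes differ between the clusters was not tested. H2ac21 and H2bc18 were high on wound vehicle replicate 1, where the replication score was -0.26, as well as on wound alprostadil replicate 1, where it was 0.28. Without the 3 arrays of lowest median, H2ac21 had a slope of -2.38 that passed (adjusted p 0.0151), where 10.8% of all genes passed below 0. H2bc18 turned to -0.84 there and did not pass, and the 4 genes above 0 passed again, where 11.3% of all genes did.

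The slopes rested on few arrays. The scores of the 3 trimebutine arrays spanned only 0.03 to 0.06, so that this group carries little of the slope. Without wound vehicle replicate 3 no histone gene passed (0.92% of all genes did, above 0), with slopes of 1.24 for H2bc3 (adjusted p 0.0516) and 3.76 for H1f5 (0.085). H1f5 and H2bc3 passed without uninjured vehicle replicate 3 (1.13% of all genes), H2ac10 and H2bc3 without wound alprostadil replicate 2 (1.51%), and H2ac10, H2bc3 and H4c9 without wound vehicle replicate 2 (2.05%). All 4 passed when any other single array was left out. Without wound alprostadil replicate 1, the array with macrophage transcripts, 7.96% of all genes passed above 0 and the slopes were 1.21 for H2bc3, 1.59 for H2ac10, 3.19 for H1f5 and 2.18 for H4c9.

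**Figure D4:**
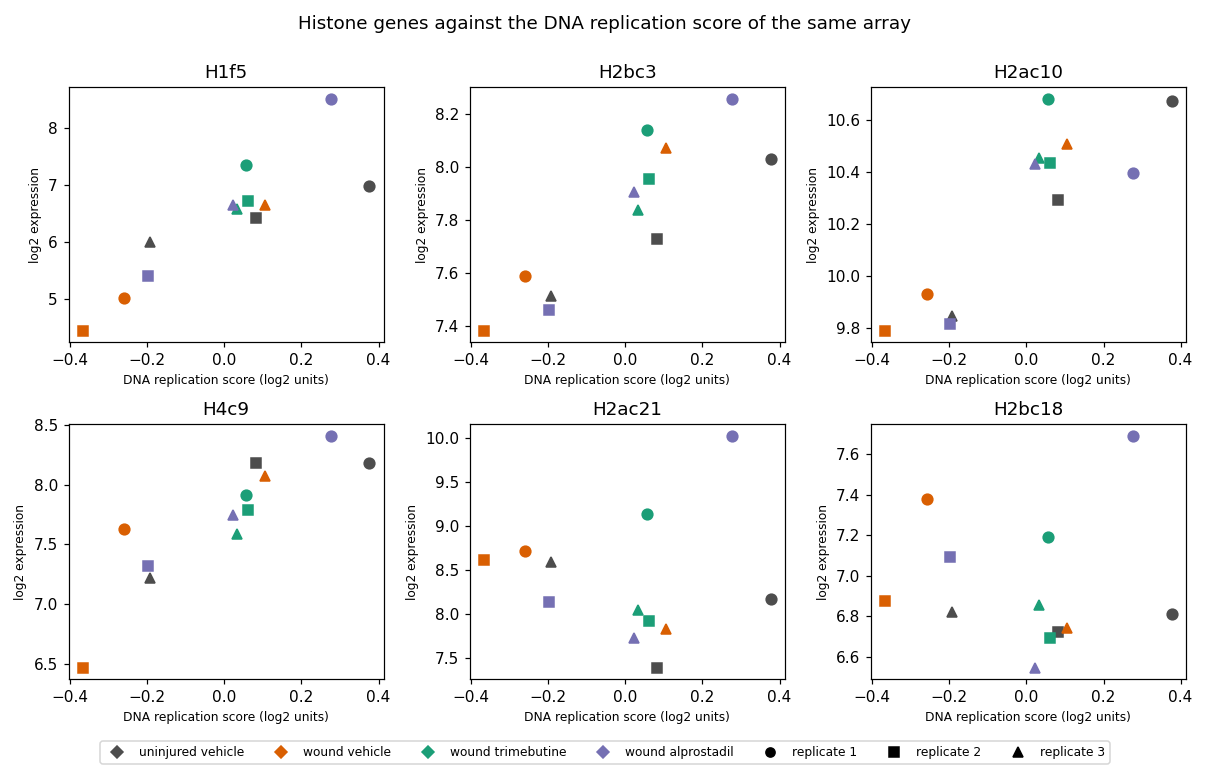
Log2 expression of 6 histone genes (vertical axes, separate scales) against the DNA replication score of the same array (horizontal axes, log2 units), with colours for groups and symbols for replicates. The 4 arrays with scores of -0.37 to -0.19 are the lowest 4 for H1f5, H2bc3 and H2ac10, and not for H4c9, H2ac21 or H2bc18. For H4c9 wound trimebutine replicate 3 (7.59) lies below wound vehicle replicate 1 (7.63).

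The factors that make and process histone mRNA gave no call. Of 28 such genes in the annotation 27 were tested and none passed, with medians of 0.02, 0.03 and 0.07 in wound vehicle minus uninjured vehicle and in trimebutine and alprostadil minus wound vehicle. Slbp, which binds the stem-loop of histone mRNA, was at 9.36, 9.35 and 9.13 in uninjured vehicle, 9.15, 8.98 and 9.10 in wound vehicle, 9.35, 9.21 and 9.29 in trimebutine and 9.51, 9.14 and 9.20 in alprostadil. Its wound vehicle arrays were low and overlapped uninjured vehicle and alprostadil but not trimebutine, where 15.8% of all tested genes did not overlap. The Slbp differences were -0.20 ± 0.11, 0.20 ± 0.11 and 0.21 ± 0.11 in the same 3 comparisons as the medians (limma, adjusted p 0.460, 0.554 and 0.998). Npat, a coactivator of histone genes at the histone locus body, differed by -0.09 ± 0.09 between wound vehicle and uninjured vehicle, and Casp8ap2 (FLASH), which acts there in 3′ end processing, by -0.01 ± 0.08. Hinfp, the factor that binds site II of H4 promoters, differed by 0.11 ± 0.12 there and by -0.23 ± 0.12 between trimebutine and wound vehicle.

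Histone genes outside the rule and the chaperones that carry histones gave no call either. From a list of 12 such histone genes 7 were tested, with medians of -0.14, 0.10 and 0.09 in the same 3 comparisons. H2az1, the variant H2A.Z, differed by -0.36 ± 0.20, 0.30 ± 0.20 and 0.47 ± 0.20, and H2ax, the variant phosphorylated at DNA breaks, by -0.14 ± 0.30, 0.21 ± 0.30 and 0.30 ± 0.30. Of the 25 chaperone genes, all tested, the medians were -0.02, 0.09 and 0.06. Nasp, a chaperone of H1 and of H3 with H4, differed by -0.30 ± 0.10, 0.21 ± 0.10 and 0.38 ± 0.10 (adjusted p 0.291, 0.539 and 0.998). Chaf1a, the large subunit of CAF-1, which deposits histones behind the replication fork, differed by -0.55 ± 0.28, 0.47 ± 0.28 and 0.31 ± 0.28, and Asf1b, which hands H3 and H4 to CAF-1, by -0.40 ± 0.53, 0.28 ± 0.53 and 0.58 ± 0.53.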

How the data were processed

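RNA of 12 samples was measured on Affymetrix Mouse Gene 2.0 ST arrays. The authors deposited 1 table of log2 expression values for 41345 probe sets, which the submitters' processing notes credit to RMA and the package oligo; no version, genome build or scan date is given in the sources used here. Gene names come from the platform annotation: 23521 probe sets carry 1 symbol, 1814 several and 16010 none, and genes of the latter are not analysed here apart from histone probe sets of several symbols. Single-symbol probe sets of near-identical histone genes may also bind other copies, which was not tested.

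The brightest probe set per symbol gave 22180 genes, and those brighter than the median of the array on 3 or more of 12 arrays, 13153, were tested. One limma 3.58.1 model (R 4.3.3) of the 4 groups, with 8 residual degrees of freedom, gave 6 comparisons and an F test, and p-values (two-sided) were adjusted by Benjamini-Hochberg over all tested genes, with a threshold of 0.05. A list score is the mean of tested genes after centring each over the 12 arrays. The script was tested on simulated arrays. The genes named were every tested member, the testis histones of the rule and 14 fixed genes of other lists, of which those without a probe set of their own are not analysed here. The testis gene Hist1h1t falls outside the rule. Alternatives were other filters, 2 normalizations, the mean of probe sets, another variance model, array weights, a replicate block, only the groups compared, another threshold and leaving out each array; fits without the 3 arrays of lowest median, with shared histone probe sets, with the block on only the groups compared, and on the replication score were added after seeing the data. Deviations of same-numbered arrays from their group means correlated at -0.64 to 0.62 (median 0.22, against -0.11 for other numbers), with 11 of 18 over 0.1. All 3 were over 0.1 for alprostadil with trimebutine (0.22 to 0.57) and with wound vehicle (0.19 to 0.62), and not in the other 4 comparisons. Arrays of different numbers could correlate more, as wound vehicle replicate 1 did with wound alprostadil replicate 2 (0.39) than with replicate 1 (0.19). This check therefore cannot decide whether the numbers pair samples. The members and lists were chosen with earlier results of these data known. The number of arrays limits the precision. The plots used Python 3.11.15 with matplotlib 3.10.9.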

Additional observations from a re-analysis of the deposited data

How the results depend on the processing

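The count of 0 histone genes passing held in all 6 comparisons and, where it was run, the F test under 2 other filters, cyclic loess, median centring, the mean of probe sets, another variance model, only the groups compared, an adjusted p of 0.1, added shared probe sets and the removal of each single array (0 to 0), and of the 3 arrays of lowest median. Array weights were the exception. They gave 4 genes in wound vehicle minus uninjured vehicle (H1f2 and H1f5 below 0, H2ac21 and H2bc18 above), where 38% of all genes passed, 2 in trimebutine minus wound vehicle (H1f5 and H2ac10, above 0), where 30.7% did, and 2 in the F test. The weights ran from 0.30 for wound alprostadil replicate 1 to 5.99 for uninjured vehicle replicate 2, and the cause was not tested. With the replicate number as a block 0 genes passed in each comparison, and the medians stayed at -0.13, 0.27 and 0.22 in the 3 comparisons with wound vehicle; 0 also passed when the block was fitted to only the groups compared, a fit chosen after seeing the data, so the block changed no call. Leaving out 1 array, the medians over the 11 or 12 genes that then passed the filter ran from -0.30 to 0.04, 0.12 to 0.46 and 0.05 to 0.45 in those comparisons, from -0.21 to 0.23 in trimebutine minus alprostadil, and from 0.0099 to 0.23 and -0.12 to 0.33 in trimebutine and alprostadil minus uninjured vehicle.

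Small differences turned sign when 1 array was left out: H2bc18 in trimebutine minus wound vehicle (-0.23 to 0.10), H2bc3 and H4c12 in trimebutine minus alprostadil (-0.11 to 0.29 and -0.21 to 0.0022), H1f2 and H4c9 in trimebutine minus uninjured vehicle (-0.42 to 0.0011 and -0.42 to 0.066), and H1f2 and H2ac10 in alprostadil minus uninjured vehicle (-0.35 to 0.038 and -0.27 to 0.15). This list covers the genes of smallest p in each direction of a comparison, and others turned too. Examples are H2ac21 in trimebutine minus wound vehicle without wound vehicle replicate 1, and H2ac10 and H2bc3 in wound vehicle minus uninjured vehicle without uninjured vehicle replicate 1. Without the 3 arrays of lowest median H2ac10 was at 0.054 in alprostadil minus uninjured vehicle. For the slope on the replication score, between 0 and 4 genes passed above 0 when 1 array was left out and 5 with median centring. Slopes ran over the same removals from -0.18 to 0.70 for H4c14, -0.46 to 0.63 for H2bc18 and -1.23 to 1.29 for H2ac21. Without the 3 arrays of lowest median 1 gene passed below 0, and the slopes of H2bc18 and H2ac21 were -0.84 and -2.38; the cause was not tested.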
